A study of Mus musculus with 6 samples.

Results

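The genes described here are Foxa1, a cofactor of steroid receptors in prostate, and 7 genes known to respond to steroid hormones in luminal prostate epithelium: Fkbp5, Slc45a3, Tmprss2, Homer2, Zbtb16, Sgk1 and Ndrg1. They were chosen by gene symbol, all 8 are among the 24421 symbols of the deposited count table, and all 8 were among the 13762 genes with enough reads to be tested. Other steroid receptor and cofactor genes are given beside them. RNA came from whole prostates of C57BL/6 mice aged 52 weeks. Controls were 3 libraries of mice homozygous for floxed p62 (p62f/f), a genotype also labelled wild type. The knockout group held 3 libraries from mice with the same floxed alleles and a Cre recombinase named for FSP1, and the labels place the loss of p62 in the stroma. The protein p62, encoded by Sqstm1, is an autophagy receptor and a hub of signalling complexes, and FSP1 is the fibroblast-associated protein encoded by S100a4, which some immune cells also express. Whether the 3 libraries of a group are 3 animals is not stated in the labels, and the p-values therefore cover the spread between libraries, which may be technical.

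Steroid hormone receptors are nuclear receptors that HSP90 and its co-chaperones hold ready for ligand. With hormone bound they enter the nucleus and bind palindromic DNA elements, and in prostate luminal cells the forkhead protein FOXA1 opens chromatin at many of those sites. Androgens and glucocorticoids act through nearly the same element, so several genes, Fkbp5, Zbtb16 and Sgk1 among them, answer to both hormones.

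The promoter sequences are shown first because the palindromic element can be read in them. RefSeq promoters (GRCm38.p6) were matched for 6 of the 8 genes, in 13 windows of 250 bases before a transcription start, and Zbtb16 and Ndrg1 were not among them. Sgk1 had the most windows of any of the 6 genes, so more of its sequence was searched. The steroid receptor element was searched on both strands as GNACA and TGTNC with 3 bases of any kind between them, a pattern held by 0.387% of all 32851 windows of that length. Of the 13 windows 1 held it, upstream of a start of Sgk1. There it forms the full palindrome of AGAACA and TGTTCT arms around 3 bases, a spelling searched after that window had been read, which 3 of the 32851 windows hold (0.00913%). The palindrome begins 189 bases before that start. The Foxa1 window holds 1 match to the forkhead letters TGTTTAC, read here on the other strand and found in 3.17% of all windows. The Fkbp5 window holds ACGTG, the core of the hypoxia element, once on each strand as a single overlapping run; the Sgk1 window with the palindrome was the other of the 13 to hold it, against 16.6% of all windows. A single arm of the palindrome, AGAACA, was in 3 of the 13 windows, all of them at Sgk1, and in 16.1% of all windows. Among those 3 is the window whose palindrome already holds the arm. The Sgk1 window is chr10:21993640-21993889 on the plus strand, the Fkbp5 window chr17:28486150-28486399 on the minus strand, and the Foxa1 window chr12:57546112-57546361 on the minus strand, each written in the direction of its gene. Capitals mark the palindrome in Sgk1, the overlapping ACGTG run in Fkbp5 and the forkhead letters in Foxa1. These matches are descriptions of letters and not of binding.
Sgk1: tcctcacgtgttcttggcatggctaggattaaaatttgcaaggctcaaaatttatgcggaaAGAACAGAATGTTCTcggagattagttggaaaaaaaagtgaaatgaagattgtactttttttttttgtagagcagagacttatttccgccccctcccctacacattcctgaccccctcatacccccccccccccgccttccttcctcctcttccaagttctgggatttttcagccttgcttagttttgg
Fkbp5: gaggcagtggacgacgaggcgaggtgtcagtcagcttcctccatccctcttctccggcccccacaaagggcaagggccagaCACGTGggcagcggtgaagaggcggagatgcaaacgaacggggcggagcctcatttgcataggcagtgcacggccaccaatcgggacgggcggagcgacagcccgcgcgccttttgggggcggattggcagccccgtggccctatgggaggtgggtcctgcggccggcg
Foxa1: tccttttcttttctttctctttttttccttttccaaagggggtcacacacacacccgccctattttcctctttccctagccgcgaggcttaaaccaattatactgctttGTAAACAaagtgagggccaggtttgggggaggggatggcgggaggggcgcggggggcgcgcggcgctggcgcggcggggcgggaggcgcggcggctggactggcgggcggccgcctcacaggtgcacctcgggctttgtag

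Total counts ran from 12826463 to 26910053 per library. Levels are given as CPM, counts in a library scaled to 1e6 counts and by TMM factors, and fold changes as log2 of knockout over control. Control 3 stood apart from the other controls: its Spearman correlation over genes was 0.942 and 0.938 with control 1 and 2, against 0.985 between those. Control 1 and 2 correlated as well with knockout 2 and 3, at 0.943 to 0.948. Knockout 1 stood somewhat apart from its group, at 0.958 and 0.953 with knockout 2 and 3, against 0.986 between those. In control 3 the 8 adipocyte markers summed to 1355 CPM, against 38.8 CPM for control 1, 34.3 CPM for control 2 and 16.0 to 83.0 CPM for the knockouts, with none of the 8 at 0 in all libraries. Luminal epithelial markers summed to 3732 to 5018 CPM in controls and 4704 to 5792 CPM in knockouts, with all 12 present. The luminal keratin gene Krt8 averaged 275 ± 25.0 CPM over controls and 286 ± 17.2 CPM over knockouts (SD, n = 3 each). Other luminal markers were less even. Of the 12, none passed in edgeR and 3 in DESeq2, against 5.07% and 11.8% of all tested genes. Groups did not overlap for 5 of the 12, 1 higher and 4 lower in knockouts, against 14.1% and 18.3% of all tested genes. Among these 5, Cdh1 averaged 489 CPM over controls and 347 CPM over knockouts, and Cd24a 748 and 1361 CPM. Smooth muscle markers summed to 1219 to 2826 CPM in controls and 2945 to 4433 CPM in knockouts. The 7 secretory genes typical of particular prostate lobes, none of them at 0 in all libraries, summed to 165653 to 283866 CPM in controls and 266299 to 322316 CPM in knockouts, but moved apart from each other. Tgm4, a transglutaminase gene of the anterior lobe, was at 32009, 34344 and 21.8 CPM in the controls and 45016 to 49776 CPM in knockouts. Of the 7, 4 fell and none rose (57.1%, against 5.07% of all tested genes, by the edgeR test used below). Sbp, the spermine binding protein gene of the ventral lobe, fell from 30978, 10640 and 89475 CPM to 40.4, 9.12 and 1.38 CPM (adjusted p = 0.0148, edgeR). Its relative Sbpl and the secreted inhibitor gene Spink1 fell by 2400 and 2419 times (adjusted p = 0.00832 and 0.00940, edgeR), and both were also highest in control 3. The 3 calls were lost without knockout 2 (adjusted p of 0.0815, 0.0543 and 0.0544) and kept in the other leave-one-out fits. The other of the 4 was Msmb, a microseminoprotein gene. Genes of different lobes thus moved with control 3 and with the knockout group. Sqstm1 RNA was at 355 ± 57.4 and 463 ± 76.8 CPM (SD, n = 3 each; adjusted p = 0.355, edgeR), and in whole organ it does not check a deletion directed to stroma.

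Responsive genes changed in opposite directions, and the cofactor Foxa1 overlapped between groups. Homer2, Fkbp5 and Slc45a3 fell, by 17.3, 13.1 and 4.16 times, and Sgk1 rose by 3.03 times. Foxa1, Tmprss2, Zbtb16 and Ndrg1 did not pass the test. This made 4 of 8 genes past an adjusted p of 0.05 (quasi-likelihood test of edgeR), 1 higher and 3 lower, where 5.07% of all tested genes passed (0.414% higher and 4.66% lower). In 7 of the 8 the knockout and control libraries did not overlap, against 32.4% of all tested genes. The genes were chosen with earlier results of these data known, so these counts describe them and are no test of the group. In RNA of a whole organ, fewer cells of a type and less RNA per cell cannot be told apart. Sbp, Sbpl and Spink1 fell with Homer2, Fkbp5 and Slc45a3, as given above, and the part of lobe content in the changes of the 8 genes was not tested.

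**Figure D1:**
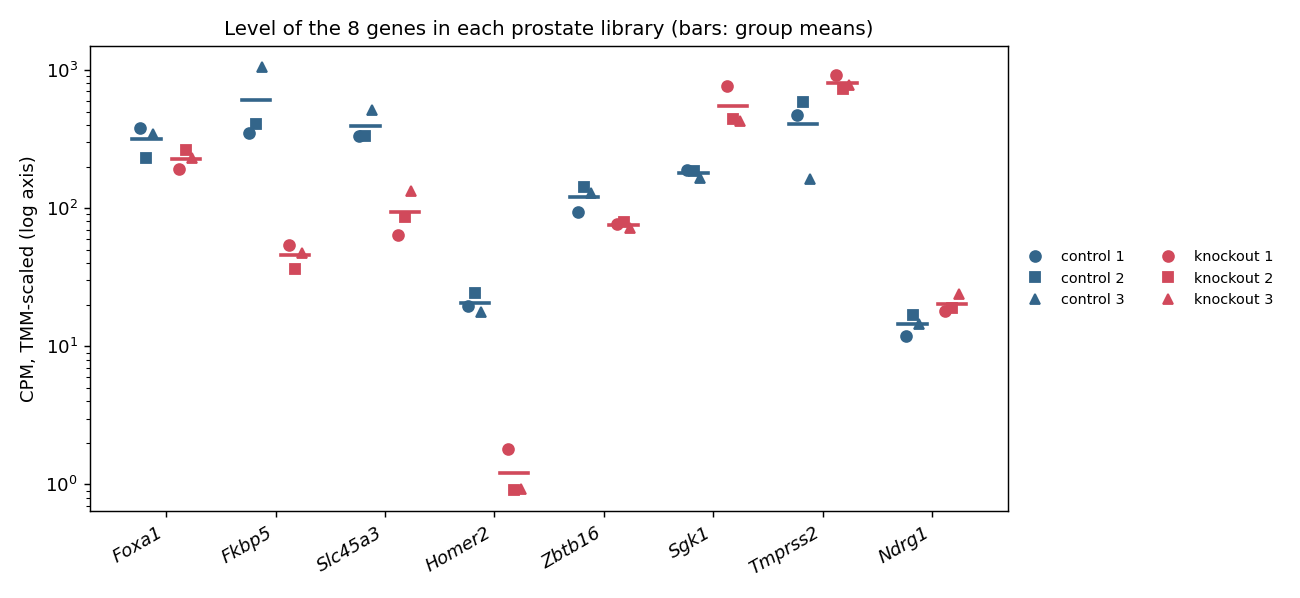
Level of the 8 genes in each library, in TMM-scaled CPM on a log axis, with controls in blue, knockouts in red, a symbol for each library and a bar at each group mean. Fkbp5, Slc45a3 and Homer2 lie lower in all 3 knockouts than in all 3 controls and Sgk1 higher, and the Fkbp5 and Tmprss2 values of control 3 (1049 and 161 CPM) lie away from the other controls.

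Foxa1 (GRCm38 chromosome 12, 57540628 to 57546916, minus strand) encodes the pioneer factor that precedes steroid receptors at their sites. It was at 383, 231 and 343 CPM in the controls, always in the order of libraries 1, 2 and 3, and at 191, 262 and 230.0 CPM in the knockouts. The groups overlapped, since knockout 2 lay above control 2. The log2 fold change was -0.49 ± 0.25 (SE; 95% interval -1.06 to 0.09; adjusted p = 0.288, edgeR).

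Fkbp5 (chromosome 17, 28399094 to 28517527, minus strand) encodes FKBP51, an HSP90 co-chaperone that lowers ligand affinity of the glucocorticoid receptor and is itself induced by steroids. It was at 350.1, 404 and 1049 CPM in the controls and at 54.0, 36.3 and 47.0 CPM in the knockouts. Every knockout lay far below every control, and control 3 held 2.78 times the mean of control 1 and 2. The log2 fold change was -3.72 ± 0.48 (SE; adjusted p = 0.00567, edgeR). Adipocyte markers and Sbp were also highest in control 3, as given above. Without control 3 the fall of Fkbp5 was -3.04 on the log2 scale (adjusted p = 5.77e-04, edgeR), and the call was kept in all 6 leave-one-out fits, which each drop 1 library.

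Homer2 (chromosome 7, 81600481 to 81707527, minus strand) encodes a scaffold protein that ties glutamate receptors to calcium signalling, and it is androgen-induced in human prostate cancer cells. It had 400, 378 and 257 counts in the controls and 24, 22 and 24 counts in the knockouts. That was 19.5, 24.1 and 17.6 CPM against 1.80, 0.91 and 0.92 CPM, with a wide gap between the groups, and control 3 was the lowest of the controls. Its log2 fold change was -4.11 ± 0.35 (SE; adjusted p = 0.00122, edgeR), and all 6 leave-one-out fits kept the call. Its relatives Homer1 and Homer3 stood at 9.74 ± 0.53 and 6.31 ± 0.57 CPM in controls and 11.97 ± 2.66 and 6.17 ± 0.55 CPM in knockouts (SD, n = 3 each; adjusted p = 0.483 and 0.948, edgeR).

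Slc45a3 (chromosome 1, 131962967 to 131982969, plus strand) encodes prostein, a solute carrier known for its prostate-restricted, androgen-driven level in human prostate. It was at 333, 335 and 509 CPM in the controls and at 63.6, 86.2 and 133 CPM in the knockouts. The highest knockout stood well under the lowest control, and control 3 was the highest of the controls, as for Fkbp5. This gave a log2 fold change of -2.06 ± 0.33 (SE; adjusted p = 0.0130, edgeR). The call was lost without knockout 2 (adjusted p = 0.0755), and without control 3 the log2 fold change was -1.82 (adjusted p = 0.0203).

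Sgk1 (chromosome 10, 21882184 to 21999903, plus strand) encodes a serine/threonine kinase that raises sodium channel activity and is a classical early target of glucocorticoids and mineralocorticoids. It was at 189, 186.7 and 166 CPM in the controls and at 767, 444 and 429 CPM in the knockouts. The controls were close to each other, and all knockouts lay above them, knockout 1 the farthest. The log2 fold change was 1.60 ± 0.28 (SE; adjusted p = 0.0191, edgeR). The call was lost without control 1, control 2 or knockout 2 (adjusted p of 0.0754, 0.0751 and 0.0521). Without knockout 1 it was kept, at a log2 fold change of 1.27 (adjusted p = 0.0175). The related kinase gene Sgk3 stood at 7.33 ± 2.80 and 16.9 ± 2.20 CPM (SD, n = 3 each; adjusted p = 0.0874, edgeR). Every knockout lay above every control for Sgk3 too. It passed in 3 of 18 alternative fits, and in none of the 6 leave-one-out fits.

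Tmprss2 (chromosome 16, 97564682 to 97611195, minus strand) encodes a membrane serine protease of luminal cells that androgens induce. It was at 473, 584 and 161 CPM in the controls and at 918, 728 and 782 CPM in the knockouts. All knockouts lay above all controls, but control 3 was far under the other controls, at 0.306 times their mean. Its log2 fold change was 0.99 ± 0.44 (SE; 95% interval -0.04 to 2.03; adjusted p = 0.241, edgeR), and without control 3 it was 0.62 (adjusted p = 0.251). Tmprss2 thus differed from Fkbp5 and Slc45a3 in both respects, being low in control 3, as Tgm4 was, and highest in the knockouts.

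Zbtb16 (chromosome 9, 48654297 to 48836222, minus strand) encodes the zinc finger repressor PLZF, which steroids induce in many tissues. It was at 93.3, 142 and 129 CPM in the controls and at 76.3, 79.3 and 71.4 CPM in the knockouts. The knockouts were close together and all lower than the controls. The log2 fold change was -0.68 ± 0.20 (SE; 95% interval -1.14 to -0.23), with an unadjusted p of 0.00900 and an adjusted p of 0.102 in edgeR, and DESeq2 gave an adjusted p of 0.0345.

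Ndrg1 (chromosome 15, 66929318 to 66969640, minus strand) encodes a differentiation-associated protein induced by androgens and by hypoxia. It was at 11.9, 16.8 and 14.6 CPM in the controls and at 18.0, 19.1 and 23.9 CPM in the knockouts. The groups did not overlap but lay close, and the log2 fold change of 0.50 ± 0.22 (SE; 95% interval -0.02 to 1.01) did not pass (adjusted p = 0.239, edgeR). Of 18 tested hypoxia-inducible genes none rose and 1 fell (5.56%, against 5.07% of all tested genes), the hexokinase gene Hk2 (143 ± 48.2 to 2.83 ± 1.17 CPM, SD, n = 3 each; adjusted p = 7.07e-04, edgeR). The median log2 fold change of that list was -0.07, against 0.03 over all tested genes.

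**Figure D2:**
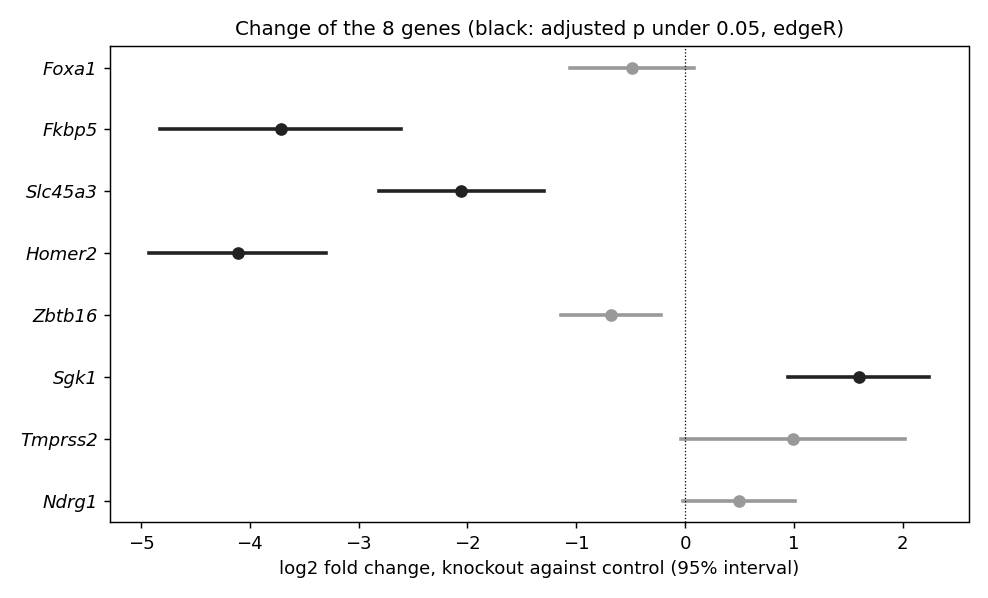
Log2 fold change of each of the 8 genes, knockout against control, with 95% intervals that are not adjusted for the number of genes; black marks an adjusted p under 0.05 in edgeR. Homer2 (-4.11), Fkbp5 (-3.72) and Slc45a3 (-2.06) lie to the left of 0 and Sgk1 (1.60) to the right, while the other intervals reach within 0.25 of 0 or cross it.

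Levels compared between genes were divided by exon length in kilobases (CPM per kb, from GENCODE M21 exons). In controls the order of mean levels was Slc45a3 (110.1 CPM per kb), Foxa1 (95.9), Fkbp5 (63.5), Tmprss2 (55.6), Sgk1 (36.8), Zbtb16 (23.0), Ndrg1 (2.19) and Homer2 (1.62). Control values of neighbours from Slc45a3 to Sgk1 in that order overlapped, though Slc45a3 (93.5 to 142.8 CPM per kb) lay above Tmprss2 (22.1 to 79.9) in every control. Sgk1 (33.9 to 38.5 CPM per kb) lay above Zbtb16 (17.7 to 26.8) throughout. In knockouts Sgk1 and Tmprss2 led at 111 CPM per kb each, with overlapping libraries, ahead of Foxa1 (68.4). Slc45a3 (26.5), Zbtb16 (14.3), Fkbp5 (4.83), Ndrg1 (3.09) and Homer2 (0.0960) followed, and neighbours among these did not overlap. Fkbp5 thus stood above Sgk1 per length in 2 of 3 controls and below it in all knockouts.

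Setting each gene against Foxa1 within a library removes the scaling between libraries. Foxa1 itself had a log2 fold change of -0.49, which did not pass in edgeR, and every ratio carries that difference. The log2 ratio of Fkbp5 to Foxa1 counts was -0.13, 0.81 and 1.61 in the controls and -1.83, -2.85 and -2.29 in the knockouts, a difference of -3.08. For Homer2 the difference of mean log2 ratios was -3.67, with -4.29, -3.26 and -4.29 in controls and -6.73, -8.16 and -7.97 in knockouts. Slc45a3 differed by -1.63, Sgk1 by 2.01, Tmprss2 by 1.65 and Ndrg1 by 0.97, and these 6 ratios did not overlap between groups, Ndrg1 by the narrowest margin (-3.784 in control 2 and -3.778 in knockout 2). Each of the 6 had p = 0.1 in a two-sided exact permutation test, the smallest that 3 libraries against 3 can give, and 0.117 after adjustment over the 7 ratios. The share of all tested genes whose ratio to Foxa1 did not overlap was not computed. In CPM 32.4% of all tested genes did not overlap, so the 6 ratios are a description only. The ratio of Zbtb16 to Foxa1 overlapped between groups, unlike Zbtb16 in CPM, with a difference of -0.19 (p = 0.8, exact permutation test). Its log2 ratios were -2.04, -0.71 and -1.41 in controls and -1.32, -1.72 and -1.69 in knockouts, and without control 2 the difference was 0.15. This overlap concerns the ratio to Foxa1 alone and does not show that Zbtb16 was unchanged against other genes. Among the controls, Foxa1 was highest and Zbtb16 lowest in control 1 (383 and 93.3 CPM). In control 2 Foxa1 was lowest and Zbtb16 highest (231 and 142 CPM). In all, 7 ratios were tested.

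**Figure D3:**
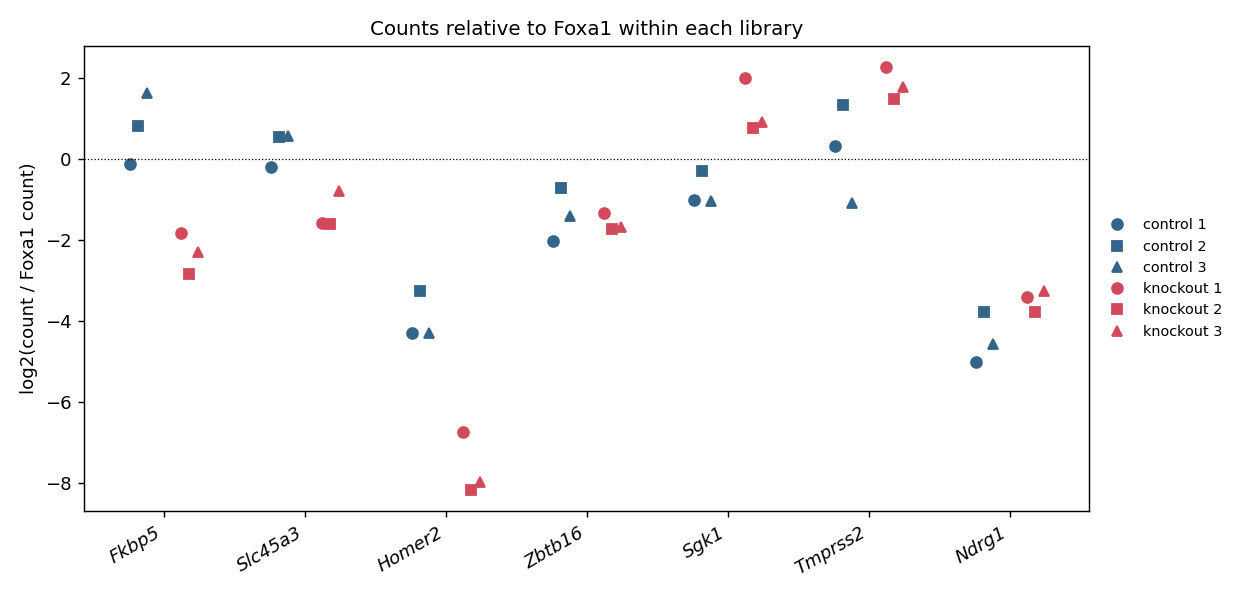
Log2 of each gene's count over the Foxa1 count in the same library, for the 7 responsive genes, with controls in blue and knockouts in red. Zbtb16 overlaps between groups, Fkbp5, Slc45a3 and Homer2 lie lower in knockouts (differences of -3.08, -1.63 and -3.67) and Sgk1, Tmprss2 and Ndrg1 higher.

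Among the receptors, Nr3c1, the glucocorticoid receptor gene, was at 53.7, 48.4 and 43.4 CPM in the controls and at 70.0, 70.4 and 64.9 CPM in the knockouts. It lay higher in every knockout, by 0.50 on the log2 scale, with an adjusted p of 0.123 in edgeR and 0.0417 in DESeq2. Nr3c2, the mineralocorticoid receptor gene, overlapped between groups at 18.4 ± 3.21 and 12.8 ± 6.14 CPM (SD, n = 3 each; adjusted p = 0.457, edgeR).

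In a list of 30 receptors and cofactors without Foxa1, 2 fell and none rose (6.67%, against 5.07% of all tested genes), with a median log2 fold change of 0.03, the same as over all tested genes to 2 decimals. Esr2, which encodes the oestrogen receptor beta of prostate epithelium, fell from 9.61, 10.9 and 13.1 CPM to 1.50, 1.45 and 2.22 CPM (log2 fold change -2.68; adjusted p = 0.00337, edgeR). Creb3l4, which encodes a membrane-bound bZIP factor abundant in prostate, fell from 17.8, 15.4 and 14.5 CPM to 2.71, 2.65 and 2.99 CPM (log2 fold change -2.51; adjusted p = 0.00170, edgeR). Each group was tight for both genes, and both calls were kept in all 6 leave-one-out fits. In control 3 Creb3l4 stood at 0.874 times the mean of control 1 and 2.

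Gata2 and Hoxb13 did not pass and varied among the controls. Gata2, a pioneer factor gene of luminal cells, was at 227, 202 and 7.79 CPM in the controls and 307 to 415 CPM in knockouts (adjusted p = 0.405, edgeR). Hoxb13, a posterior homeobox gene of prostate, was at 374, 354 and 571 CPM in the controls and 401, 244 and 232 CPM in the knockouts (adjusted p = 0.311, edgeR). Thus Gata2, like Tmprss2, was lowest in control 3, and Hoxb13, like Fkbp5 and Slc45a3, was highest there.

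**Figure D4:**
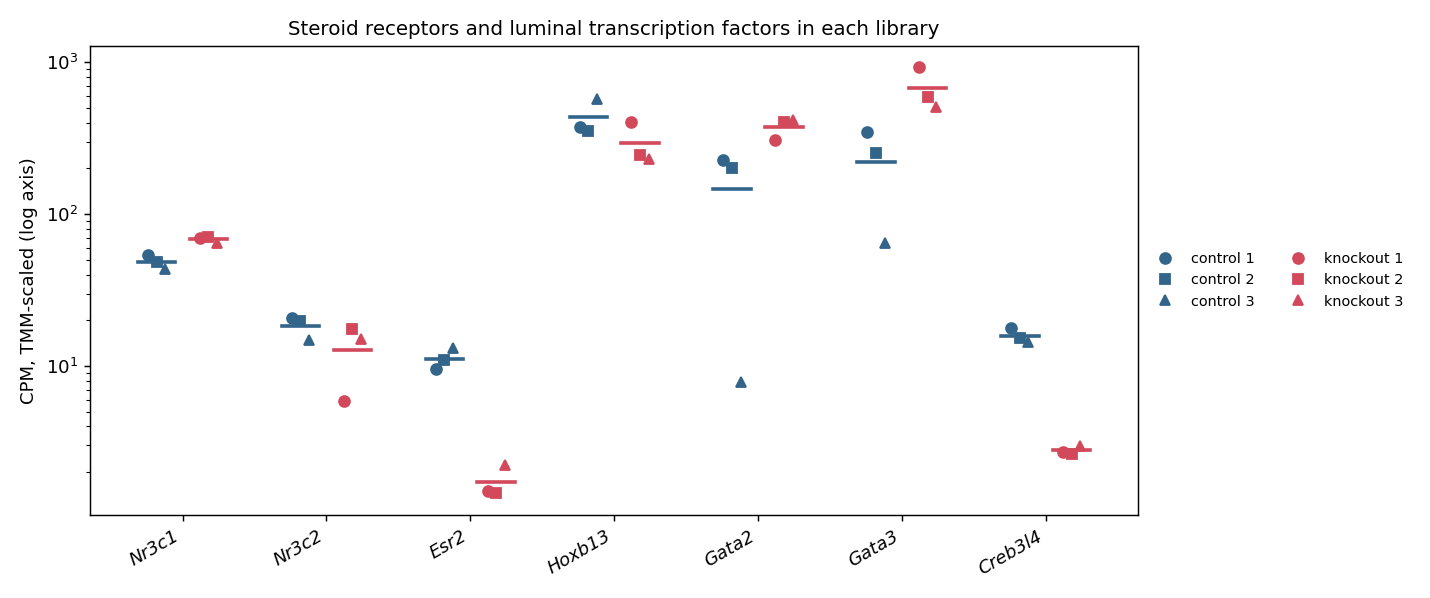
Level of steroid receptor genes and luminal transcription factor genes in each library, in TMM-scaled CPM on a log axis, with bars at group means; Gata3 was added after its values were seen. Esr2 and Creb3l4 lie lower in all knockouts, Nr3c1 lies higher without passing the edgeR test, and Gata2 and Gata3 have their lowest value in control 3 (7.79 and 65.0 CPM).

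None of 14 receptor chaperone genes passed in edgeR, with 4 at an unadjusted p under 0.05, 3 in DESeq2 and 0 in limma-voom. Over all tested genes the shares were 5.07% in edgeR, 22.1% at an unadjusted p under 0.05, 11.8% in DESeq2 and 4.85% in limma-voom. Of the 14, 12 had positive log2 fold changes, with a median of 0.44 against 0.03 over all tested genes. Knockout 1 was the highest of the knockouts for every gene of this list except Ppp5c. Hspa8 was at 336, 329 and 361 CPM in the controls and 1731, 457 and 661 CPM in the knockouts. Bag1 was at 104, 116 and 131 CPM in the controls and 190, 101 and 101 CPM in the knockouts. Fkbp4 encodes FKBP52, the co-chaperone that raises ligand affinity of the glucocorticoid receptor where FKBP51 lowers it. Fkbp4 was at 366, 459 and 254 CPM in the controls and 664, 439 and 511 CPM in the knockouts. Its groups overlapped (log2 fold change 0.58; adjusted p = 0.281, edgeR), in contrast to the separated groups of Fkbp5. Hsp90aa1 was at 291, 174 and 232 CPM in the controls and at 999, 308 and 240 CPM in the knockouts, so its higher mean came from knockout 1 (adjusted p = 0.259, edgeR).

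Among 38 other tested androgen-responsive genes, 5 fell and none rose (13.2%, against 5.07% of all tested genes), and 14 had positive and 24 negative log2 fold changes, with a median of -0.23. Described here are 4 of the 5: Timp4, a metalloproteinase inhibitor, Mme, the membrane peptidase neprilysin, Msmb, a secreted microseminoprotein, and Cdk6, a cell cycle kinase named after its values were seen. Timp4 fell from 122, 129 and 412 CPM to 0.68, 0.21 and 0.57 CPM (log2 fold change -8.87; adjusted p = 0.00119, edgeR). Mme fell from 903, 795 and 1233 CPM to 137, 104 and 240 CPM (log2 fold change -2.61; adjusted p = 0.00907, edgeR). As with Fkbp5 and Slc45a3, both were highest in control 3. Msmb was at 1.27, 311 and 346 CPM in the controls and at 1.20, 0.50 and 0.08 CPM in the knockouts (adjusted p = 0.0461, edgeR), so control 1 stood level with knockout 1. Cdk6 was scarce, at 2.54, 2.49 and 3.83 CPM in the controls and 0.98, 0.79 and 0.77 CPM in the knockouts (log2 fold change -1.81; adjusted p = 0.0355, edgeR). Timp4 and Mme kept their call in all 6 leave-one-out fits and Msmb in 1, without control 1 (adjusted p = 0.00371, edgeR), against adjusted p of 0.0676 to 0.168 in the others. Probasin, Pbsn, the classical androgen-driven secretory gene of the mouse, went the other way, at 9754, 8716 and 546 CPM in the controls and 15600 to 37873 CPM in knockouts (adjusted p = 0.266, edgeR).

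Of 20 tested glucocorticoid-responsive genes other than the 8, 1 rose and none fell in edgeR, while 10 had an unadjusted p under 0.05, DESeq2 passed 6 and limma-voom 0. The 1 call is 5% of the list, against 5.07% of all tested genes, of which 22.1% had an unadjusted p under 0.05 and DESeq2 passed 11.8%. Cebpd, a transcription factor gene of the acute response, was the 1 that rose, from 8.83, 10.1 and 5.06 CPM to 25.5, 29.1 and 16.1 CPM (log2 fold change 1.56; adjusted p = 0.0426, edgeR). None of the 6 leave-one-out fits kept its call (adjusted p of 0.0580 to 0.153). The list had 10 positive and 10 negative log2 fold changes, with a median of 0.05. Tsc22d3, which encodes the glucocorticoid-induced leucine zipper GILZ, was at 68.6, 90.7 and 164 CPM in the controls and 80.0, 41.0 and 29.3 CPM in the knockouts, with overlap (adjusted p = 0.201, edgeR). Per1, a clock gene with a glucocorticoid element, was at 41.6 ± 4.27 and 49.7 ± 9.16 CPM (SD, n = 3 each; adjusted p = 0.446, edgeR). Fkbp5 and Sgk1, both known targets of this receptor, changed in opposite directions beside this list of mixed sign.

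None of 15 steroid-metabolising enzyme genes passed in edgeR, with 8 at an unadjusted p under 0.05, 4 in DESeq2 and 1 in limma-voom, beside shares of 5.07%, 22.1%, 11.8% and 4.85% of all tested genes. The median log2 fold change of the list was -0.27. Srd5a1 and Srd5a2, 5-alpha-reductase genes whose enzymes turn testosterone into dihydrotestosterone, were scarce. Srd5a2 was at 4.0, 2.49 and 3.83 CPM in the controls and 0.68, 1.24 and 1.65 CPM in the knockouts (log2 fold change -1.50; adjusted p = 0.0976, edgeR). Srd5a1 was at 2.34 ± 0.51 and 3.25 ± 1.31 CPM (SD, n = 3 each; adjusted p = 0.491, edgeR). Srd5a3, named after its values were seen, was at 11.3 ± 0.91 and 15.6 ± 0.42 CPM (SD, n = 3 each; adjusted p = 0.211, edgeR). It lay higher in every knockout than in every control. Among 20 tested relatives of the 8 genes, 1 fell (5%, against 5.07% of all tested genes), the protease gene Tmprss4, from 5.22, 5.43 and 6.90 CPM to 0, 0.08 and 0 CPM (adjusted p = 0.00228, edgeR). The other membrane protease genes Hpn and St14 did not pass (adjusted p = 0.174 and 0.568, edgeR), and Ndrg2 and Ndrg3 overlapped between groups (adjusted p = 0.664 and 0.514).

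**Figure D5:**
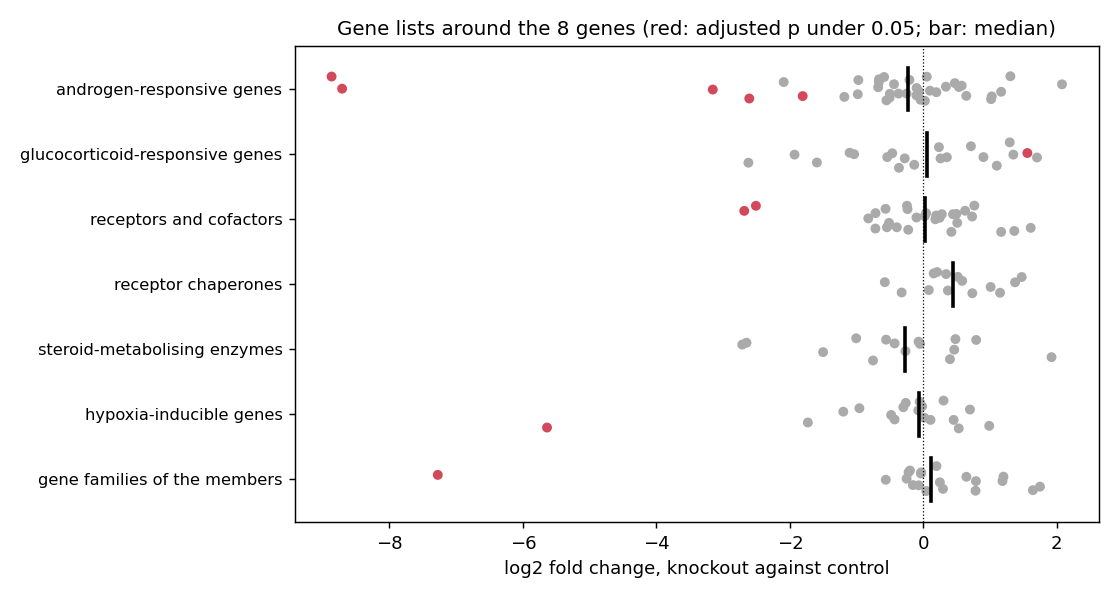
Log2 fold change, knockout against control, of every tested gene in 7 lists around the 8 genes, which are themselves left out; red marks an adjusted p under 0.05 in edgeR and a bar the list median. The medians lie between -0.27 and 0.44, and the androgen-responsive list holds 5 of the called genes, all lower.

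Genes with the profiles most like each of the 8 over the 6 libraries were found by the root mean square distance of log2 CPM after centring. Nearest to Homer2 were the epithelial transcription factor genes Klf5 and Tfcp2l1 (distances of 0.31 and 0.39), which fell from 15.3 to 0.85 CPM and from 113 to 5.02 CPM (adjusted p = 0.00181 and 5.97e-04, edgeR). Nearest to Fkbp5 were the phosphatase gene Ptprt and the coactivator gene Cited4 (0.23 and 0.24). Slc45a3 lay nearest to Cnnm4, of magnesium transport, and Kifc3, a kinesin gene (0.13 and 0.14). Sgk1 lay nearest to Id2, an inhibitor of bHLH factors, and Psph, of serine synthesis (0.17 each). Tmprss2 lay nearest to N4bp3 (0.10). Foxa1 lay nearest to Mcu and Grb2 (0.06 and 0.08), Zbtb16 to Cpxm2 and Dgka (0.06 and 0.09), and Ndrg1 to Pfkp and Trmt61a (0.06 and 0.09). None of these genes was nearest to more than 1 of the 8.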

How the data were processed

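Polyadenylated RNA of whole prostates was made into strand-preserving libraries and sequenced single-end, per the labels' protocols. STAR, DESeq2 and mm10 appear in the submitters' processing notes, without roles or versions. How reads were assigned to genes, and with which annotation and strand setting, is not given in the sources used here. The authors deposited whole-number read counts per gene symbol, unnormalized, in 6 columns matched to samples by title. The genotype label gave the groups, and the numbers 1 to 3 only name libraries.

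Counts were tested with edgeR 4.0.16 in R 4.3.3 (minimum count 10, TMM factors, quasi-likelihood F test, no covariate), with Benjamini-Hochberg adjustment over 13762 genes at 0.05. Standard errors are the absolute log2 fold change over the root of F. The fit was checked on simulated counts. Alternatives were other scalings and filters, DESeq2 1.42.0, limma-voom (limma 3.58.1), other thresholds and left-out libraries. Coordinates and exon lengths are those of GENCODE M21, whose GRCm38 assembly mm10 names. The 8 genes, lists and tests were chosen with earlier results of these data known. Named genes were the 8, a preset list of receptors, chaperones, targets and relatives, up to 4 called genes per list and direction with a mean log2 CPM of at least 1, and the 2 nearest profiles per gene among genes with a mean log2 CPM of at least 3; some of these are not reported here. Library pairs within a group differed beyond sampling noise (chi-square per gene of 51.7 or more). Transcripts annotated on the opposite strand within Fkbp5, Homer2 and Ndrg1 were not among the tested genes. Whether their reads were kept apart from these genes is not known, as the strand setting is not given. Other untested transcripts overlap Fkbp5 and Slc45a3 on the same strand. Reads carry no molecular identifiers.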

Additional observations from a re-analysis of the deposited data

How the results depend on the processing

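The 8 genes kept the sign of their log2 fold change under all 18 alternatives. The number past the threshold was 4, and 5 in DESeq2, 2 at a false discovery rate of 0.01 and 2 to 4 with a library left out, while it stayed 4 under the other scalings and filters run. Over all genes the count of 698 became 1618 in DESeq2 (71.9% lower, against 91.8%), 246 at 0.01, 1190 at a rate of 0.10, 255 to 551 with a library left out, and 1229 without control 3 and knockout 1. Scaling to luminal epithelial markers gave 474. Library size alone moved the median log2 fold change of all genes from 0.03 to -0.10, and Fkbp5 was then at -3.90 and Sgk1 at 1.46. Signs near 0 turned for Homer3 (0.015 with upper-quartile factors, and -0.11 to 0.040 with a library left out), Krt8 (-0.079 with library size alone, and -0.015 to 0.12 with a library left out) and Krt18 (-0.015 without control 3 and knockout 1, and 0.03 to 0.41 with a library left out). The difference of the Zbtb16 to Foxa1 log2 ratio ran from -0.52 to 0.15 with a library left out. The cause of these changes was not tested. No paired analysis was possible because the labels give the groups no shared replicate numbers. Homer2 in knockouts rests on 22 to 24 counts per library, which limits its precision.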
